A study of Mus musculus with 9 samples.

Results

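Secretoglobins, a cystatin and other minor secreted proteins of the mouse sublingual gland were described through 6 genes. They were the secretoglobins Scgb1b27 and Scgb2b27, the prolactin-induced protein gene Pip, the lactoperoxidase gene Lpo, the cystatin Cst10 and the whey acidic protein family gene Wfdc2. The 6 genes were picked from 54532 genes in the count tables as secreted-protein genes with a large fall after irradiation or a wide spread among controls, and all 6 were among the 15348 genes that passed the filter on low counts. Their differences from control and their spread among controls are therefore given as a description, with no test. The 9 RNA-seq libraries were made from RNA of 4 tissue sections of wild-type (WT) sublingual glands, with 3 libraries from glands that received no radiation, 3 from glands 7 days after 10 Gy and 3 from glands 14 days after 10 Gy. Strain, sex and age, and whether the 3 libraries of a group came from separate animals, are not given in the labels, so the spread between libraries may be partly technical.

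The sublingual gland is a mucous salivary gland whose acini carry caps of serous cells, the demilunes. Besides mucins, saliva holds small proteins that bind ligands, inhibit proteases or limit microbes. Secretoglobins are small secreted proteins that form disulphide-linked dimers, and in mouse the genes of the Scgb1b and Scgb2b groups encode alpha and beta subunits of androgen-binding protein, which pair as a heterodimer. Pip is a secreted protein of salivary, lacrimal and mammary glands that binds other proteins, and its human gene responds to prolactin and androgen. Lpo is a haem peroxidase that uses hydrogen peroxide to oxidise thiocyanate to an antimicrobial product. Cystatins inhibit cysteine proteases, and Cst10 is known from mouse cartilage. Wfdc2 encodes a small secreted protein with the whey acidic protein fold, made by many ducts and airways.

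Scgb1b27 (ENSMUSG00000066583) and Scgb2b27 (ENSMUSG00000066584) lay side by side on chromosome 7 of GRCm38, at positions 34021483 to 34022881 on the plus strand and 34011921 to 34013942 on the minus strand. The genes point away from each other across 7541 bases, with no protein-coding gene annotated between them. Other kinds of gene were not looked for there. The next protein-coding gene beyond Scgb2b27 was Scgb2b26 (chromosome 7, 33943002 to 33945040, minus strand), 66881 bases away. Pip (ENSMUSG00000058499) lay on chromosome 6 at 41847535 to 41852065 on the plus strand, and Lpo (ENSMUSG00000009356) on chromosome 11 at 87806428 to 87828289 on the minus strand. Cst10 (ENSMUSG00000033156) and Wfdc2 (ENSMUSG00000017723) both lay on chromosome 2, at 149405057 to 149410293 and 164562413 to 164568510, on the plus strand. No annotated gene overlapped any of the 6. Of Scgb2b27's exonic 50-base windows 1.99% occurred in another annotated gene, and of the other 5 members' windows 0%.

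The promoters of the secretoglobins, Pip and Wfdc2 are shown because the results below turn on these genes, and Scgb2b26 is shown beside its neighbour. Each sequence is the RefSeq window on GRCm38.p6 from 250 bases before to 50 bases after the annotated start, read 5′ to 3′ on the gene's strand. Capitals mark matches, on either strand, to TATAAA (the TATA box), TGTTCT (a half-site of steroid hormone receptors) or TTCNNNGAA (the STAT site, bound by the factors that prolactin activates). The windows are chr7:34021231-34021530 on the plus strand for Scgb1b27, chr7:34013893-34014192 on the minus strand for Scgb2b27, chr7:33944936-33945235 on the minus strand for Scgb2b26, chr6:41847299-41847598 on the plus strand for Pip and chr2:164562465-164562764 on the plus strand for Wfdc2.
Scgb1b27: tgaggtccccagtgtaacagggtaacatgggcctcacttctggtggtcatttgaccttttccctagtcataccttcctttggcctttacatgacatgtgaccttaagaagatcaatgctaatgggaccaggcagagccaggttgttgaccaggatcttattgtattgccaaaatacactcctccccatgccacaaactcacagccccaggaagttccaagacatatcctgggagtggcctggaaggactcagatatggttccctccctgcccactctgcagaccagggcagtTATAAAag
Scgb2b27: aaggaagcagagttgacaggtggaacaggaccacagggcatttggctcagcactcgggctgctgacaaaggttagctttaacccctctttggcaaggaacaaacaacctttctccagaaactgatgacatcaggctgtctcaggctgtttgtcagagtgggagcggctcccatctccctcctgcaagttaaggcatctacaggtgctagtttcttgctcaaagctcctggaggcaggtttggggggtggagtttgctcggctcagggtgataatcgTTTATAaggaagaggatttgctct
Scgb2b26: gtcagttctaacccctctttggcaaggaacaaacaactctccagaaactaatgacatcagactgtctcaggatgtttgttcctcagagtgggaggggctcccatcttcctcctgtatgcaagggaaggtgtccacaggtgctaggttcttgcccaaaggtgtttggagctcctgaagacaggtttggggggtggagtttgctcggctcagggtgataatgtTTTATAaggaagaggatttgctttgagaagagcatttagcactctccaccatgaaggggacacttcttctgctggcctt
Pip: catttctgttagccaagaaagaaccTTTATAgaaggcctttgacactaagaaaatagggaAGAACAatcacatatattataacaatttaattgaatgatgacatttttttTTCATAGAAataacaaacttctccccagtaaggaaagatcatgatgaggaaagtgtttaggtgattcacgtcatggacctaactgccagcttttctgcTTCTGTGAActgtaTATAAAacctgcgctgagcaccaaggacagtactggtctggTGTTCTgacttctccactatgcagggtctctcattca
Wfdc2: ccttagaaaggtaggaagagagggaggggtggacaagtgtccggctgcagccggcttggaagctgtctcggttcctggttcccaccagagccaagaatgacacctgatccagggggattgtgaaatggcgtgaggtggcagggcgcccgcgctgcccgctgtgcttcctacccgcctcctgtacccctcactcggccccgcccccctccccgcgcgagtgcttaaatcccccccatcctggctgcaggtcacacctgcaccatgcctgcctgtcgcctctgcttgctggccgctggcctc

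A TATA box match was found in 14.2% of the 27025 RefSeq promoter windows of this length, a TGTTCT match in 19.02% and a TTCNNNGAA match in 8.47%. The Pip window held 2 matches to each, and its TATAAA match on the plus strand began 28 bases before the start. The TATA matches of Scgb1b27 and Scgb2b27 lay 43 and 27 bases after the RefSeq start, and that of Scgb2b26 lay 29 bases before its RefSeq start. Scgb2b27 and Scgb2b26 shared an unbroken run of 41 bases, which began 17 bases before the RefSeq start of Scgb2b27 and 72 bases before that of Scgb2b26. The RefSeq start of Scgb2b26 lies inside its gene span given above, whereas that of Scgb2b27 is the edge of its span. The positions in these genes are thus counted from unlike starts and do not show a difference between them. The longest run shared by Scgb1b27 and Scgb2b27, the co-located pair, was 7 bases. The Wfdc2 window had no match to these motifs, a GC content of 65.3% and 16 CpG dinucleotides, where the medians over all windows were 52.7% and 7. That window begins inside the Wfdc2 gene span given above, so it holds no bases upstream of that span. The windows of Cst10 and Lpo, which held none of the 3 motifs, are not shown. The Lpo window lay wholly inside the Lpo gene span and the Cst10 window mostly inside the Cst10 span. Their lack of matches thus says little of the bases upstream of those spans. A match describes letters in a window and says nothing of binding.

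Total counts ran from 15962399 to 19441239 per library, and values below are CPM, the count of a gene scaled by TMM to a common library total, on which 3 counts came to 0.159 to 0.202 CPM. The lowest count of any member in any library was 127. Counting error alone gave an SD of log2 CPM of at most 0.117, below the observed SD for every member and group but Cst10 in controls. The mucous acinus list (7 genes) summed to 97122 to 118311 CPM in controls, 115687 to 129024 CPM at day 7 and 102950 to 120826 CPM at day 14, although its members Muc5b and Tff2 averaged at most 0.132 CPM in any group. At day 7 edgeR called 2 of its 5 tested genes lower and 1 higher. That is 40% and 20%, where 14.8% and 15.8% of all tested genes were. The median log2 fold change of those 5 was −0.38, so the sum does not stand for each gene of the list. The serous demilune list (5 genes) summed to 153596 to 230032 CPM in controls, 116430 to 120413 CPM at day 7 and 152236 to 159950 CPM at day 14. All 5 of its genes were called lower at day 7 by edgeR, where 14.8% of all tested genes were. Counts of its near-identical Dcpp genes may have been split between copies, and Lyz1 was of low abundance, so these calls are not independent signs. That list moved with the lower values of the members at day 7, and its part in them was not tested. The female-specific transcript Xist was detected in all 9 libraries, and the Y-linked Ddx3y, Eif2s3y and Uty were at 0 in all 9. A further Y-linked gene, Kdm5d, was not at 0 in all 9 but did not pass the filter on low counts. Control library 3 stood apart from the other controls in several secreted-protein genes, and results that rest on it are given with and without it.

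Scgb1b27 and Scgb2b27 were the most abundant of the 6 genes and were lower in every day 7 library than in any control. Per kilobase of exon, Scgb1b27 averaged 6041 CPM in controls, 775 CPM at day 7 and 2278 CPM at day 14, and Scgb2b27 averaged 3745, 1028 and 2282 CPM. Among 15343 genes ranked by that level, Scgb1b27 stood at rank 7 in controls, 29 at day 7 and 16 at day 14, and Scgb2b27 at 13, 22 and 15. The 6 genes together held 0.551%, 1.25% and 1.91% of all counts in the 3 controls, 0.258%, 0.389% and 0.224% at day 7, and 0.542%, 0.666% and 0.741% at day 14. In bulk tissue, fewer cells of a type and less RNA per cell cannot be told apart.

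Scgb1b27 had 1785, 6199 and 10231 CPM in the 3 controls, 615, 1297 and 424 CPM at day 7, and 2039, 2378 and 2450 CPM at day 14. All day 7 libraries lay below all controls, while the day 14 libraries lay close together inside the control range. Its log2 fold change was −2.96 (SE 0.731) at day 7 and −1.41 (SE 0.692) at day 14, both against control. Without control library 3 these were −2.37 and −0.83.

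Scgb2b27 had 3672, 6385 and 7593 CPM in controls, 1449, 2019 and 1375 CPM at day 7, and 2783, 3580 and 4393 CPM at day 14. The order of the 3 controls was the same as for Scgb1b27, and day 7 library 2 was the highest of its group for both genes. Its log2 fold change against control was −1.87 (SE 0.324) at day 7 and −0.71 (SE 0.315) at day 14, and without control library 3 it was −1.66 and −0.52. Day 14 overlapped control, with library 3 at day 14 above the lowest control.

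The alpha and beta subunit genes did not keep a fixed ratio. Per kilobase of exon, Scgb1b27 stood to Scgb2b27 as 0.760, 1.52 and 2.11 to 1 in the controls, 0.664, 1.00 and 0.482 to 1 at day 7, and 1.15, 1.04 and 0.872 to 1 at day 14. The ratio was widest among controls, where it differed between libraries by more than it did at day 14.

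**Figure D1:**
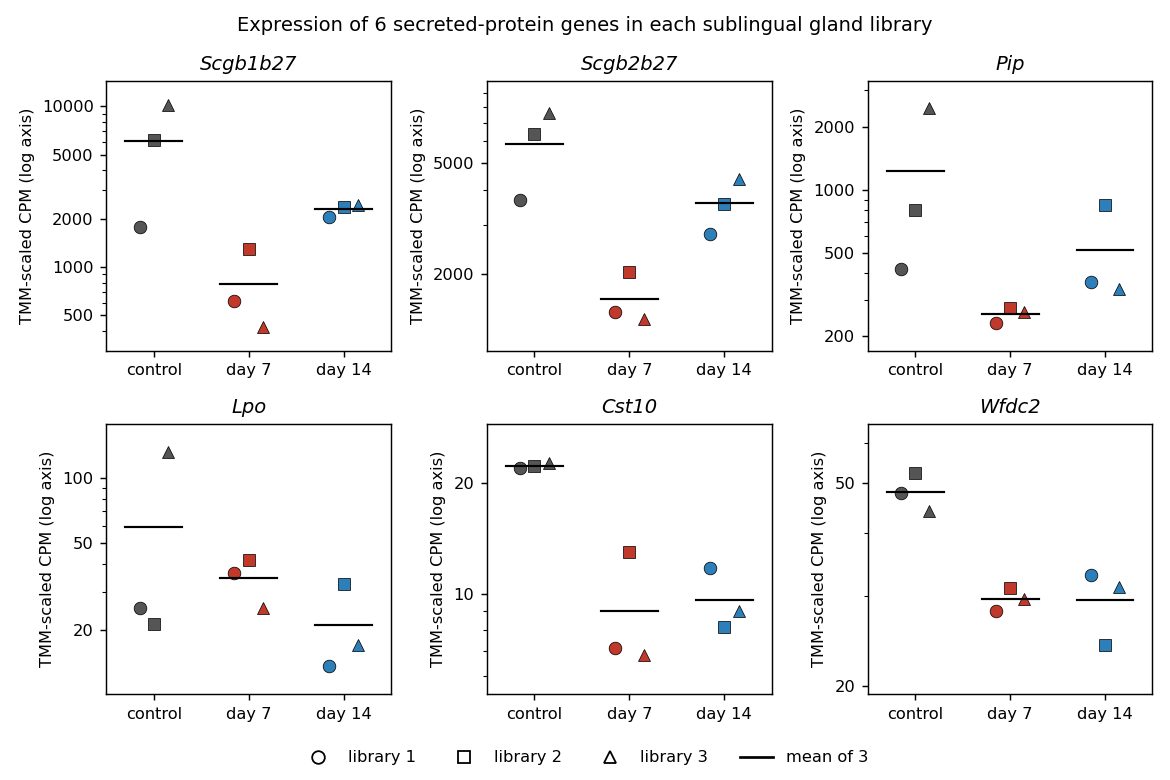
Each panel plots 1 gene's TMM-scaled CPM on a log axis in the 9 libraries, with the control, day 7 and day 14 groups from left to right, marker shapes for library numbers and a line at the mean of 3. The day 7 points of Scgb1b27, Scgb2b27, Pip, Cst10 and Wfdc2 all lie below their control points, while Lpo has 1 control far above the other 8 libraries, at 131 CPM.

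Pip had 421, 803 and 2456 CPM in controls, 231, 274 and 261 CPM at day 7, and 365, 850 and 338 CPM at day 14. The day 7 libraries were close together and below every control, and at day 14 library 2 stood above the other day 14 libraries and above 2 of the 3 controls. The log2 fold change against control was −2.27 (SE 0.733) at day 7 and −1.24 (SE 0.710) at day 14. Without control library 3 it was −1.28 at day 7 and −0.27 at day 14, and without day 14 library 2 the day 14 value was −1.82. Sval2, a seminal vesicle antigen-like gene that lies 924 bases beyond Pip, had at most 3.50 CPM in any library.

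Lpo had 25.1, 21.4 and 131 CPM in controls, 36.7, 41.8 and 25.3 CPM at day 7, and 13.7, 32.6 and 17.1 CPM at day 14. Control library 3 was above all other libraries, the other controls lay below every day 7 library, and day 14 overlapped both other groups. The log2 fold change against control was −0.78 (SE 0.780) at day 7 and −1.49 (SE 0.801) at day 14. Without control library 3 the day 7 value turned to 0.55 (SE 0.422) and the day 14 value was −0.17, so its direction at day 7 rested on that library. Its neighbour Mpo, the peroxidase of neutrophils, lies 2015 bases away and had at most 0.226 CPM.

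Cst10 had 22.0, 22.2 and 22.7 CPM in controls, 7.11, 13.0 and 6.82 CPM at day 7, and 11.7, 8.12 and 8.98 CPM at day 14. All 6 irradiated libraries lay below all 3 controls. The log2 fold change against control was −1.32 (SE 0.212) at day 7 and −1.22 (SE 0.211) at day 14. Since Cst10 is known from cartilage, the 9 cartilage markers were summed: they came to 2.32 to 2.98 CPM in controls, 0.922 to 1.81 CPM at day 7 and 1.27 to 1.73 CPM at day 14. Col2a1, Acan and Matn1 were at 0 in all 9 libraries, and the rest of the markers were not. The 2 markers that passed the filter had a median log2 fold change against control of −1.39 at day 7 and −1.16 at day 14, with 0 called at either time. The part of cartilage in the Cst10 values was not tested.

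Wfdc2 had 48.0, 52.4 and 44.1 CPM in controls, 28.0, 31.1 and 29.6 CPM at day 7, and 33.0, 24.0 and 31.3 CPM at day 14. As for Cst10, no irradiated library reached the lowest control, and the values at both times lay together. The log2 fold change against control was −0.70 (SE 0.124) at day 7 and −0.71 (SE 0.124) at day 14. With a correction for gene length and GC content it was −0.35 and −0.51. Its close neighbour Spint3, a protease inhibitor gene 1185 bases away, was at 0 in every library.

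Counted over the members, 5 of 6 lay lower at day 7 with no overlap between the libraries of the groups, all but Lpo, where 21.7% of all tested genes did. At day 14 it was 2 of 6, Cst10 and Wfdc2, where 10.7% of all tested genes did. By edgeR, 30.6% of all tested genes were called at day 7, and 1.13% higher and 0.632% lower at day 14. These contrasts chose the members, so nothing is read from their counts, and the choice had no numerical threshold. The day 7 mean was 61.4% of the control mean for Wfdc2 and 58.4% for Lpo, the closest to control among the 6 with all 3 controls. Without control library 3 the log2 fold changes were −0.78 for Wfdc2 and 0.55 for Lpo. The nearest protein-coding gene of the family outside the 6, Scgb2b26, had a larger day 7 difference than any of them.

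The 6 genes fell apart in how they varied within groups. The SD of log2 CPM over the 3 controls was 1.45 for Lpo, 1.30 for Scgb1b27, 1.29 for Pip and 0.55 for Scgb2b27, against a median of 0.21 over all tested genes. It was 0.12 for Wfdc2 and 0.022 for Cst10, which placed Cst10 at percentile 1.08 of all tested genes and Lpo at percentile 98.9. The Cst10 value lies below the 0.076 that counting error gives for its 330 to 401 counts per control, so its place among genes of low spread is imprecise. The highest control was 6.14 times the lowest for Lpo, 5.83 times for Pip, 5.73 times for Scgb1b27 and 2.07 times for Scgb2b27, but 1.19 times for Wfdc2 and 1.03 times for Cst10.

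The spread did not stay with the gene. Scgb1b27 had an SD of 0.82 at day 7 and 0.14 at day 14, and Pip had 0.13 at day 7 and 0.74 at day 14. Cst10, the tightest in controls, had an SD of 0.51 at day 7, percentile 88.9. Scgb2b27 had an SD of 0.30 at day 7 and 0.33 at day 14. An SD of 3 values is itself imprecise, and the differences between these SDs were not tested.

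**Figure D2:**
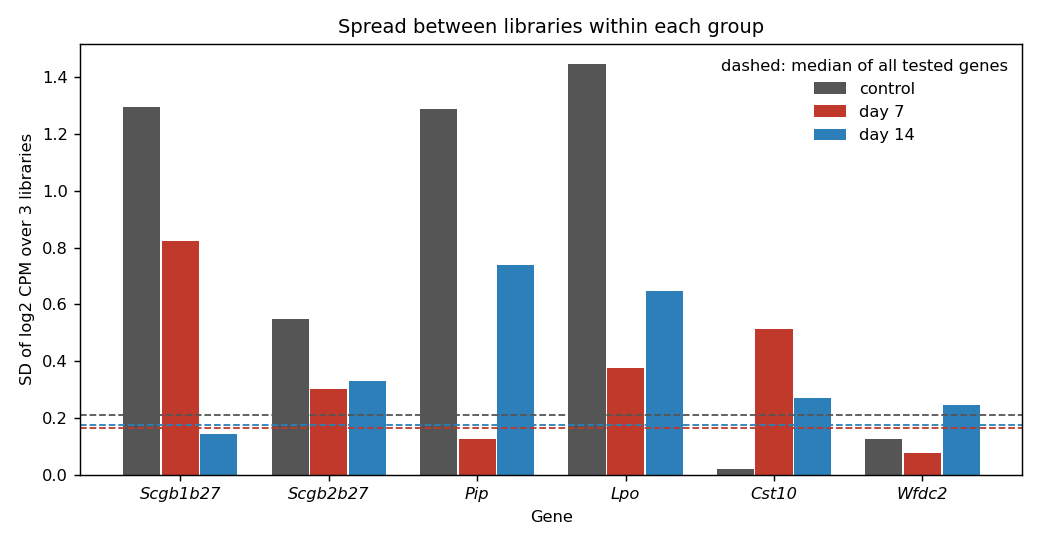
Bars give the SD of log2 CPM over the 3 libraries of each group for each gene, in the order control, day 7 and day 14, and dashed lines give the median over all tested genes in each group. Scgb1b27, Pip and Lpo stand highest in controls (1.30, 1.29 and 1.45), and the Cst10 control bar is close to 0 (0.022).

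The high value of control library 3 was shared by other secreted-protein genes. Scgb2b26, the nearest protein-coding Scgb2b gene, had 221, 502 and 2683 CPM in controls, 43.8, 66.0 and 4.72 CPM at day 7, and 61.8, 441 and 64.7 CPM at day 14. Mucl2, a mucin-like gene of the submandibular gland, had 4420, 7832 and 76316 CPM in controls, 1222, 1691 and 39.4 CPM at day 7, and 200.2, 14178 and 1378 CPM at day 14. Both genes were highest in control library 3, lowest in day 7 library 3, and far higher in library 2 than in the other libraries at day 14.

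Prol1, a proline-rich secreted peptide gene, and Car6, the secreted carbonic anhydrase, had the same highest library as Mucl2 and Scgb2b26 in each of the 3 groups. Prol1 reached 8360 CPM in control library 3 and 1721 CPM in day 14 library 2, and Car6 reached 5044 and 1011 CPM there. Pip and Lpo were likewise highest in control library 3 and in day 14 library 2. Cst10 was nearly level among controls (22.0, 22.2 and 22.7 CPM), and its day 14 value was lowest in library 2. Wfdc2 had its lowest control in library 3 and its lowest day 14 value in library 2. Scgb1b27 and Scgb2b27 were highest in library 3 both in controls and at day 14.

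The submandibular gland lies against the sublingual gland, and its acinus list holds Mucl2 and Prol1. That list was highest in control library 3 and, at day 14, in library 2, where Mucl2 and Prol1 made up most of its sum. The sum thus repeats the values of those genes and adds no separate observation. The submandibular acinus list (Smr2, Smr3a, Prol1, Smgc and Mucl2, 3 of 5 tested) summed to 5848 to 85895 CPM in controls, 1317 to 3229 CPM at day 7 and 1172 to 17255 CPM at day 14, with no member at 0 in all libraries. The granular duct list (17 genes, 16 tested) summed to 2804 to 4927 CPM in controls, 1778 to 1918 CPM at day 7 and 1763 to 2340 CPM at day 14. It was highest in control library 3, but day 14 library 2 was the lowest of its group. The parotid acinus list (7 genes, 3 tested) summed to 11695 to 12779 CPM in controls, 6237 to 7516 CPM at day 7 and 6456 to 8118 CPM at day 14. The plasma cell list (7 genes, 6 tested) summed to 1801 to 2994 CPM in controls, 1305 to 1539 CPM at day 7 and 1286 to 2668 CPM at day 14. It too was highest in control library 3 and, at day 14, in library 2, with day 14 library 1 close to that at 2511 CPM. No granular duct, parotid or plasma cell marker was at 0 in all 9 libraries. The part of these cells in the members' values was not tested. Cst10 and Wfdc2 were as low or lower against control without control library 3, with log2 fold changes of −1.33 and −0.78 at day 7.

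**Figure D3:**
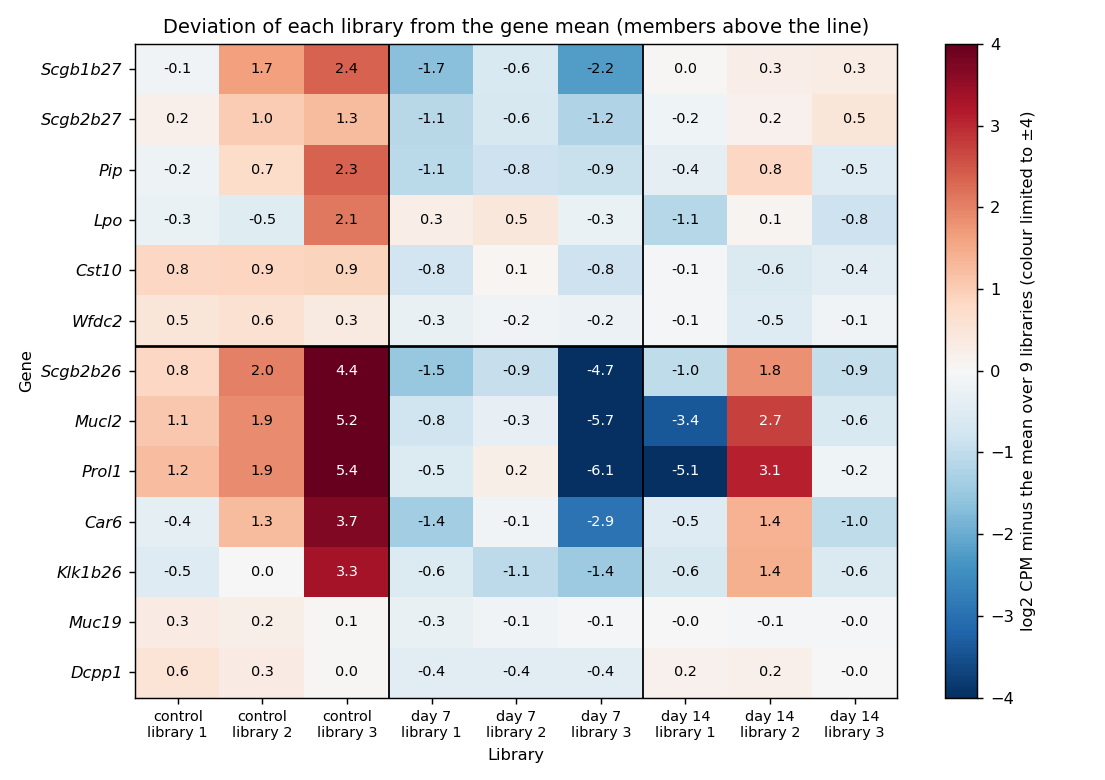
Each cell gives a library's log2 CPM minus the gene's mean over the 9 libraries, with the 6 members above the line and 7 other secreted-protein genes below it, and with the libraries of control, day 7 and day 14 from left to right. Control library 3 and day 14 library 2 are high in Scgb2b26, Mucl2, Prol1, Car6 and Klk1b26, while Cst10 and Wfdc2 are high in all 3 controls alike.

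From day 7 to day 14 the members parted again. The comparison of day 14 with day 7 was not the contrast that chose the genes, but its day 7 libraries took part in the choice. A choice of genes with low day 7 values favours higher values at day 14, so the count and the tests below describe these libraries and are no independent evidence. Scgb1b27, Scgb2b27 and Pip were higher in all 3 day 14 libraries than in all day 7 libraries, 3 of 6 members, where 15.9% of all tested genes were. By edgeR's quasi-likelihood test with Benjamini-Hochberg adjustment over all genes, none of the 6 passed, where 6.59% of all tested genes did. At an unadjusted p under 0.05 there was 1 member, and DESeq2 called 1, in both cases Scgb2b27.

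Scgb2b27 averaged 3585 ± 805 CPM at day 14 and 1614 ± 352 CPM at day 7 (SD, n = 3 each), a log2 fold change of 1.15 (SE 0.317, adjusted p = 0.0876 by edgeR). Over 17 alternative settings that adjusted p ran between 0.00592 and 0.253. Scgb1b27 averaged 2289 ± 219 CPM at day 14 and 779 ± 459 CPM at day 7, with a log2 fold change of 1.56 (SE 0.695, adjusted p = 0.257 by edgeR). Pip averaged 518 ± 289 CPM at day 14 and 255 ± 22.2 CPM at day 7, a log2 fold change of 1.02 (SE 0.708, edgeR adjusted p = 0.471). The log2 fold changes were 0.10 (SE 0.215) for Cst10, −0.01 (SE 0.125) for Wfdc2 and −0.71 (SE 0.800) for Lpo, with edgeR adjusted p-values of 0.847, 0.987 and 0.683.

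The wider families were then counted, with the members left out. Of 177 genes of the secretoglobin, cystatin, whey acidic protein, peroxidase and other salivary secreted protein lists, 52 passed the filter. At day 7, edgeR called 12 lower and 2 higher than control. That is 23.1% lower and 3.85% higher, where 14.8% and 15.8% of all tested genes were called in those directions, and the median log2 fold change of the 52 genes was −0.39 against 0.02 over all genes. With the length and GC correction the split over all genes was 1163 higher and 2167 lower, against 2419 higher and 2273 lower without it. At day 14 none of the 52 was called by edgeR against control, where 1.76% of all tested genes were. At an unadjusted p under 0.05 there were 11, DESeq2 called 5, and without control library 3 edgeR called 7.

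Other secretoglobins were few. Of 67 further secretoglobin genes 5 passed the filter, and edgeR called none at day 7, where 30.6% of all tested genes were. At an unadjusted p under 0.05 there were 2, and DESeq2 called 1. Scgb2b26 had a day 7 log2 fold change against control of −4.90 (SE 1.61, edgeR adjusted p = 0.0653) and was the gene that DESeq2 called. Its day 14 value was −2.58 (SE 1.44, edgeR adjusted p = 0.364). The other 4 genes, Scgb2b7, Scgb2b24, Scgb1b3 and Scgb1c1, had at most 3.78 CPM in any library. Scgb1b30, the next protein-coding gene beyond Scgb1b27, had at most 0.271 CPM.

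Among cystatins, 2 of 4 tested genes were called lower at day 7, where 14.8% of all tested genes were. Cst3, cystatin C, an inhibitor secreted by most tissues, had 66.1, 67.7 and 61.4 CPM at day 7 and 124, 102 and 103 CPM in controls. It fell by 0.75 on the log2 scale (SE 0.104, edgeR adjusted p = 5.91e-05), with every day 7 library below every control. Cst3 stood at 106, 112 and 91.1 CPM at day 14, where 2 of the 3 libraries lay within the control range. Cstb, a cystatin that acts inside cells, fell by 0.44 (SE 0.109, edgeR adjusted p = 0.00515), a call lost with the length and GC correction.

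Of the 7 tested whey acidic protein family genes, 2 were called lower at day 7 (28.6%), where 14.8% of all tested genes were. Wfdc18 had 1515, 2125 and 2200 CPM at day 7 and 3395, 4438 and 2780 CPM in controls, a fall of 0.86 on the log2 scale (SE 0.199, edgeR adjusted p = 0.00966). Wfdc12, known in human skin as an elastase inhibitor, had 2590, 2922 and 2952 CPM at day 7 and 4047, 5005 and 3528 CPM in controls, a fall of 0.57 (SE 0.130, edgeR adjusted p = 0.00351). Both were far more abundant than Wfdc2 and, unlike Wfdc2, had day 14 libraries that overlapped the controls.

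The peroxidase list (8 tested) had 1 gene called higher and 1 lower at day 7. That is 12.5% each way, near the 15.8% and 14.8% of all tested genes, so nothing is read from the count. Duoxa2 matures the oxidase Duox2, which makes hydrogen peroxide for peroxidases. It had 7.92, 5.46 and 4.97 CPM in controls, 9.44, 14.2 and 8.11 CPM at day 7, and 2.16, 2.60 and 4.60 CPM at day 14. All day 7 libraries lay above all controls and all day 14 libraries below them. It rose by a log2 fold change of 0.79 at day 7 against control (SE 0.279, edgeR adjusted p = 0.0394), a call lost without control library 2 or 3, without day 7 library 1 or 2 and with a replicate block. It was lower at day 14 than at day 7, with a log2 fold change of −1.76 (SE 0.291, edgeR adjusted p = 0.00181) and no overlap. Mpst, a sulfur transferase, fell by 0.36 at day 7 (SE 0.103, edgeR adjusted p = 0.0126), a call lost with the length and GC correction and without control library 1 or 2 or day 7 library 3. Duox2 itself was not called at day 7, with 38.6, 60.7 and 32.0 CPM against 32.7, 16.3 and 28.9 CPM in controls.

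Of 28 tested genes for other salivary secreted proteins, 7 were called lower and 1 higher at day 7. That is 25% and 3.57%, beside 14.8% and 15.8% of all tested genes. Lyz1, a lysozyme, fell by 2.30 on the log2 scale (SE 0.484, edgeR adjusted p = 0.0023), with 1.36, 0.439 and 0.483 CPM at day 7 and 1.58, 4.65 and 5.08 CPM in controls. At day 14 it had 4.90, 7.48 and 4.22 CPM. Pigr, the receptor that carries immunoglobulin A into saliva, fell by 0.48 (SE 0.104, edgeR adjusted p = 0.00201). The demilune genes Dcpp1 and Dcpp2 fell by 0.76 and 0.78 (SE 0.110 and 0.111, edgeR adjusted p = 7.99e-05 and 7.70e-05), and counts of near-identical Dcpp genes may have been split between copies. The other 3 lower genes were Dcpp3 (−0.67), the mucin Muc19 (−0.38) and Bpifa2 (−0.62), a secreted protein of the parotid, and the higher one was the protease inhibitor gene A2ml1 (0.44), all named after their values were seen. Bpifa2 was not called when control library 1, control library 2, day 7 library 1 or day 7 library 3 was left out, and A2ml1 was not called with the length and GC correction.

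**Figure D4:**
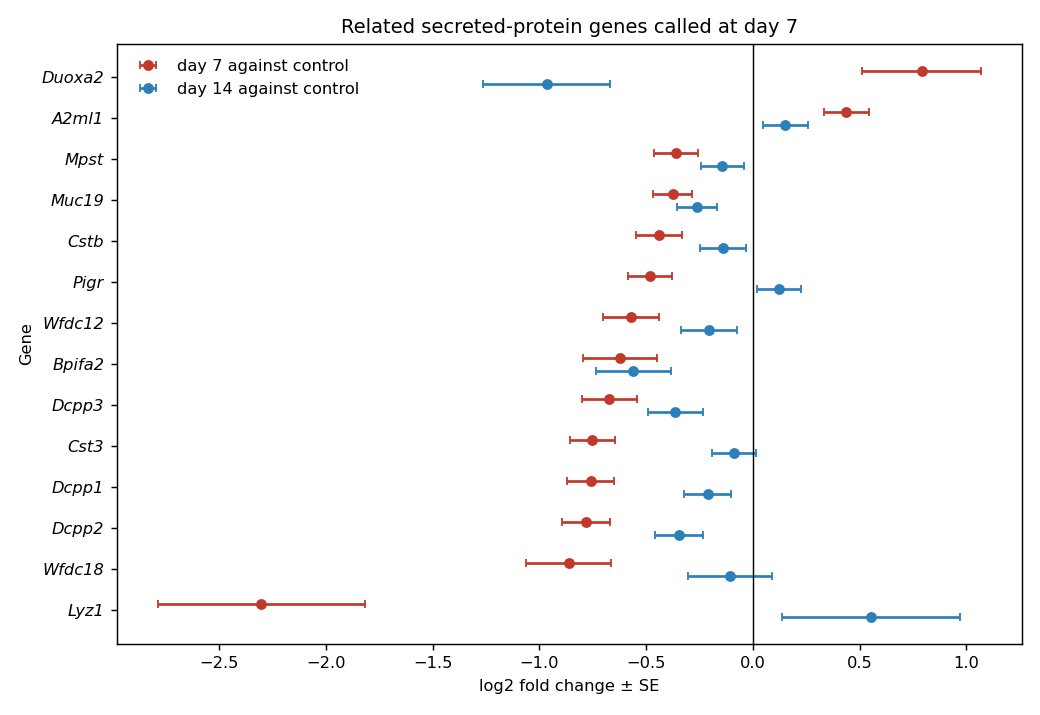
Points give the log2 fold change against control and bars its SE, for day 7 above day 14, of the 14 non-member secreted-protein genes that edgeR called at day 7. Most lie left of 0 at day 7 and nearer to 0 at day 14, while Duoxa2 lies right of 0 at day 7 (0.79) and left of it at day 14 (−0.97).

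Between day 14 and day 7, 6 of the 52 genes were higher and 1 was lower by edgeR, where 3.72% and 2.87% of all tested genes were. The higher genes were Cst3 (log2 fold change 0.66, SE 0.104), Pigr (0.60, SE 0.104), Lyz1 (2.85, SE 0.480), Lyz2 (1.45, SE 0.239), Dcpp1 (0.55, SE 0.109) and Dcpp2 (0.43, SE 0.111), and the lower one was Duoxa2. The call of Lyz2 was lost without day 14 library 2 and with only the 6 libraries compared, and that of Dcpp1 with the length and GC correction. The call of Dcpp2 was lost with that correction, and without control library 2 or any 1 of the 6 irradiated libraries.

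Of 17 tested genes for hormone receptors and regulators, edgeR called 3 higher and 5 lower at day 7, that is 17.6% and 29.4%, beside 15.8% and 14.8% of all tested genes. Foxa1, a pioneer factor of secretory epithelia, had 251, 283 and 318 CPM at day 7 and 166, 165 and 205 CPM in controls, a log2 fold change of 0.67 (SE 0.121, edgeR adjusted p = 0.000607). Spdef, a factor needed for mucous and goblet cell secretion, had 478, 482 and 529 CPM at day 7 and 929, 700 and 661 CPM in controls, a log2 fold change of −0.62 (SE 0.117, edgeR adjusted p = 0.000768). Foxa1 was higher in every day 7 library than in any control, and Spdef lower in every one.

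Bhlha15, a factor of serous secretory cells, and Sox10, a factor of acinar and glandular progenitor cells, both fell by 0.46 on the log2 scale (SE 0.0950 and 0.0974, edgeR adjusted p = 0.00135 and 0.00165). The call of Sox10 was lost with the length and GC correction. The other calls, named after their values were seen, were the glucocorticoid receptor Nr3c1 (0.71) and the prolactin receptor Prlr (0.77), which rose, and Thra (−0.39) and Elf5 (−0.29), which fell. Nr3c1 and Prlr were not called with the length and GC correction. Prlr was also not called without control library 1 or 2, Thra without day 7 library 1, and Elf5 without any 1 of the 3 day 7 libraries or with no filter on low counts. At day 14 edgeR called none of the 17 against control, with 6 at an unadjusted p under 0.05 and none by DESeq2. Spdef alone of the 17 was called by edgeR at day 14 against day 7, higher by a log2 fold change of 0.46 (SE 0.117, adjusted p = 0.0255), a call lost without day 7 library 1 or 2 or day 14 library 1 or 2. DESeq2 called 2 of the 17 there.

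Genes with the most similar profile were sought as those with the smallest root mean square difference in log2 CPM over the 9 libraries after each gene's mean was removed, among 10103 genes of at least 5 CPM, with the 6 members left out. Wfdc2 was nearest to S100a1, Sap30l and Nudt2, at differences of 0.11, 0.13 and 0.13, and Cst10 to Kcnk3 and Relb, at 0.28 and 0.29. Lpo was nearest to Aldh3b2 (0.36), Slc37a2 (0.49) and the kallikrein Klk1b22 (0.57), and Pip to Ighm, Klk1b22 and Agt, all at 0.53. Scgb2b27 was nearest to Slc25a34 (0.34), Prr13 (0.41) and Crip1 (0.43). Scgb1b27 was nearest to Car6 (0.82), Ccl9 (0.89) and Arntl (0.89). Among the members themselves the closest were Cst10 and Wfdc2, at 0.37, while Scgb1b27 differed from Scgb2b27 by 0.60 and from Pip by 0.69, both less than from Car6. The median difference over the 10103 genes was 0.40 for Wfdc2, 0.69 for Cst10, 0.84 for Scgb2b27, 0.91 for Lpo, 1.06 for Pip and 1.38 for Scgb1b27. Differences of unlike members are thus not comparable, and that of Cst10 and Wfdc2 was near the median for Wfdc2.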

How the data were processed

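The authors deposited, for each of the 9 libraries, raw counts of reads per gene, as whole numbers and not normalised. The build mm10 and the tools STAR, featureCounts and DESeq2 are named in the submitters' processing notes. Tool versions and settings, the annotation and strand handling were not given in the sources used here. Identifiers were matched to GENCODE M21 (GRCm38).

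The counts were fitted in R 4.3.3 with edgeR 4.0.16 (filterByExpr, TMM, robust quasi-likelihood F test, two-sided, all 9 libraries in a design of 3 groups, 6 residual degrees of freedom). P-values were adjusted by Benjamini-Hochberg over all 15348 genes tested, with a threshold of 0.05. DESeq2 1.42.0 was an alternative, and the test was tried on simulated data. Other alternatives changed the scaling, the filter, the design, the correction for length and GC content, or left out each library in turn. The members and all gene lists were chosen with earlier results of these data known. Named genes were the members, all tested secretoglobins, up to 4 called genes of smallest p per list and lists with 5 or fewer calls. Direct protein-coding neighbours and 3 nearest profiles per member were also named. Promoters came from RefSeq (GRCm38.p6), and all 6 members matched. No pair of libraries agreed within sampling noise, since chi-square over its degrees of freedom was at least 9.68 within groups. A gene among the nearest profiles is not reported here.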

Additional observations from a re-analysis of the deposited data

Results flagged for a closer look

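Of the related genes named above, 8 had day 7 and day 14 effects against control that differed, by edgeR's quasi-likelihood test of day 14 against day 7 with Benjamini-Hochberg adjustment over all genes. The contrasts share their controls, so the difference between the effects is the day 14 against day 7 log2 fold change. It was 0.66 for Cst3, 0.60 for Pigr, 2.85 for Lyz1, 1.45 for Lyz2, 0.55 for Dcpp1, 0.43 for Dcpp2 and 0.46 for Spdef, all higher at day 14, and −1.76 for Duoxa2, which was lower at day 14. Adjusted p-values ran from 0.000931 for Cst3 to 0.0255 for Spdef. None of the 6 members was among these genes.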

How the results depend on the processing

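Of 306 member fold changes under alternative settings, 289 kept their direction and their side of the threshold or, where untested, moved by less than the spread between libraries, and of 102 counts of calls 77 stayed within 1.5 times. Day 14 calls against control were 270 genes, but 1300 with no filter on low counts, 142 with the length and GC correction, 157 with only the 6 libraries compared and 1003 by DESeq2. Related genes called at day 14 against control were 9 with no filter, 1 with only the 6 libraries and 5 by DESeq2, and against day 7 they were 11 with no filter. With the length and GC correction Wfdc2 was −0.35 at day 7 and −0.51 at day 14 against control, and Cst10 was −0.049 at day 14 against day 7. Scgb2b27 passed the threshold at day 14 against day 7 with only the 6 libraries (log2 fold change 1.14, adjusted p = 0.0382) and by DESeq2 (1.14, adjusted p = 0.00592). The cause of these shifts was not tested.

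With each library left out in turn, genes called ran from 3106 to 5314 at day 7 and from 13 to 1939 at day 14 against control, and from 330 to 1415 between the days. Related genes called ran from 11 to 17, from 0 to 7 and from 5 to 9. The log2 fold changes against control ran from −1.68 to −1.15 for Cst10, −2.68 to −1.28 for Pip and −1.18 to 0.55 for Lpo at day 7, and from −1.82 to −0.27 for Pip and −1.96 to −0.17 for Lpo at day 14. Between the days they ran from 0.98 to 1.34 for Scgb2b27, −0.066 to 0.46 for Cst10 and −0.094 to 0.11 for Wfdc2.

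Libraries with the same number did not deviate together (correlations −0.112 to 0.0367), and control library 3 correlated best with day 7 library 1 (0.158). The labels do not say whether the numbers pair libraries, and correlations this weak cannot settle it. With a replicate block, 4319, 113 and 746 genes were called in the 3 comparisons, related genes called were 13, 0 and 7, and Scgb2b27 between the days was 1.13 (adjusted p = 0.0236). Of 42 searches of member promoters, 39 gave the same matches in the bases before the start alone, those of Scgb1b27 and Scgb2b27 to TATAAA were lost, and Pip kept 1 of its 2 TGTTCT matches. With profiles also scaled to equal variance, 0 or 1 of the 3 nearest genes of each member was kept.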
